A study of Homo sapiens with 4 samples.

Results

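Matrix metalloproteinases (MMPs), ADAMTS proteases and ADAMTS-like proteins, together with their tissue inhibitors (TIMPs), were examined in Ishikawa cells in which the chromodomain corepressor *CDYL* was knocked down. The genes were chosen by symbol alone: protein-coding genes named MMP, ADAMTS or ADAMTSL with a number, and TIMP1 to TIMP4. The rule found 52 of the 58522 genes listed, namely 23 MMPs, 19 ADAMTS proteases, 5 ADAMTS-like genes, 4 TIMPs and *MMP24OS*. *MMP24OS* lies opposite *MMP24*, matches the symbol pattern and is annotated as protein-coding, but it is not a metalloproteinase, so it was kept out of every sum of proteases.

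Ishikawa cells were derived from a human endometrial adenocarcinoma and are widely used as an established model of endometrial epithelium. The 2 groups were *CDYL*-sh cells, which carried a short hairpin RNA against *CDYL*, and control cells, which carried a negative control hairpin, with 2 RNA-seq libraries each. All cells were of this 1 line and had been transduced with a hairpin vector and selected with puromycin, so the controls carry that treatment too. The labels do not say whether the 2 *CDYL*-sh libraries came from different hairpins or whether the libraries of a group were separate cultures, so the p-values below measure only the spread between these libraries. The study numbered its hairpins in the same style as these labels. Replicate 1 and 2 below are therefore label numbers only, and the *CDYL*-sh replicates may differ in hairpin.

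MMPs are zinc endopeptidases that cut collagens and other matrix proteins, and they are made as inactive precursors that must lose a propeptide. ADAMTS proteases are secreted relatives with thrombospondin repeats that process procollagens, proteoglycans and von Willebrand factor, while the ADAMTS-like proteins share their ancillary domains but lack the protease domain. TIMPs bind the active site of MMPs, and TIMP2 is also needed for MMP14 to activate the MMP2 precursor. In the endometrium these genes are known for matrix breakdown at menstruation and for remodelling around implantation, much of it by stromal cells.

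The libraries held between 22341852 and 27688447 counts, and between 21323 and 22007 genes had a count in a library. *CDYL* itself had 11.4 and 9.70 CPM, a count scaled by library size, in *CDYL*-sh libraries, against 50.4 and 53.0 CPM in control libraries, which is 20.4% of the control level. Epithelial markers were abundant, at 3259 and 3515 summed CPM in *CDYL*-sh and 3374 and 3766 in control libraries. The 7 markers in this sum went different ways, with 2 log2 fold changes above 0 and 5 below. *KRT19* had 545.7 and 608.7 CPM in *CDYL*-sh, against 314.4 and 397.5 CPM in control libraries. *KRT18* had 579.5 and 699.3 CPM in *CDYL*-sh, against 751.0 and 865.6 CPM in control libraries. The 9 fibroblast markers summed to 18.0 and 16.0 CPM in *CDYL*-sh and 23.8 and 26.1 in control libraries. Of these, *COL3A1*, *DCN* and *FAP* had 0 counts in all libraries, but *COL1A1* and *COL1A2* were expressed. *COL1A1* had 247 and 171 counts in *CDYL*-sh and 362 and 436 counts in control libraries. *COL1A2* had 218 and 153 counts in *CDYL*-sh and 252 and 219 counts in control libraries. The 5 endothelial markers summed to 7.96 and 8.84 CPM in *CDYL*-sh, against 3.81 and 4.26 CPM in control libraries, with *KDR* at no more than 3 counts. Within that list the markers went different ways, with *PECAM1* at 146 and 140 counts in *CDYL*-sh and 45 and 52 counts in control libraries, and *CDH5* at 7 and 7 counts in *CDYL*-sh and 17 and 23 counts in control libraries. The 7 leukocyte markers summed to 21.6 and 19.2 CPM in *CDYL*-sh and 8.22 and 12.1 CPM in control libraries, nearly all of it *CD68*, while *CD3E* was at 0 and *PTPRC* had at most 1 count. The epithelial sums overlapped between the groups, while the other 3 sums did not, and their part in the results was not tested.

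Most of the family was silent or scarcely expressed in these cells. There were 8 members with no count in any library, which were *MMP8*, *MMP21*, *MMP26*, *MMP27*, *MMP28*, *ADAMTS1*, *ADAMTS5* and *ADAMTS16*. In a single library, between 36 and 38 members had a count. The filter on low counts kept 30 members for the test and dropped 22, and the dropped members had at most 9 counts in any library. A member that passes such a filter through 1 group alone has to differ, so the counts below are given as a description of the tested members.

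**Figure D1:**
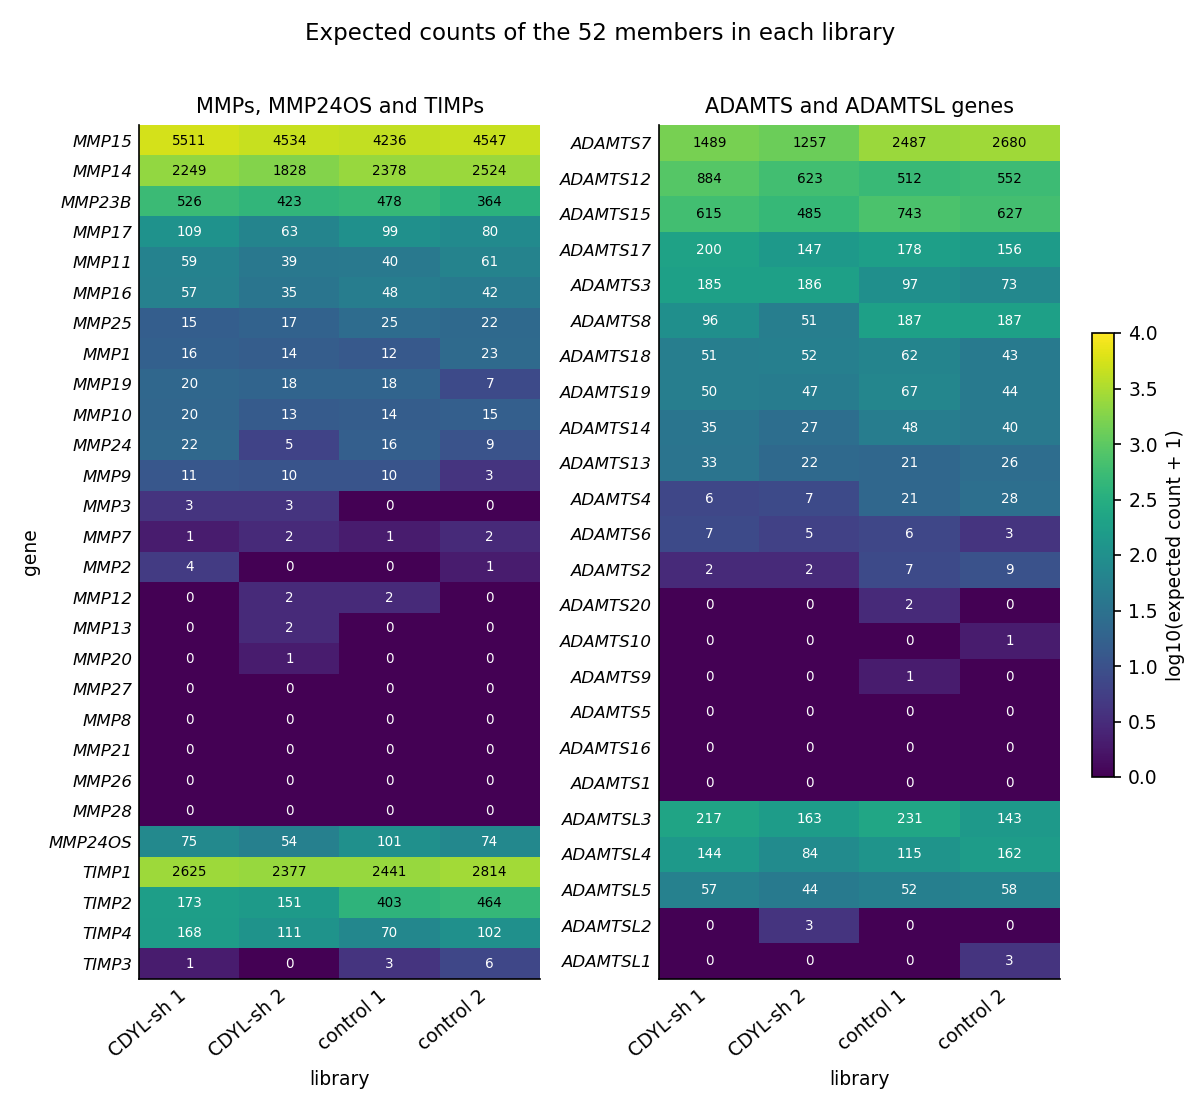
Expected counts of the 52 members (rows) in the 2 CDYL-sh and 2 control libraries (columns), with each count printed rounded and coloured as log10(expected count + 1). MMP15, MMP14, TIMP1 and ADAMTS7 stand above 1000 counts in every library, while 8 members are at 0 in all libraries.

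Of the 30 members tested, 4 rose and 4 fell in *CDYL*-sh cells. The genes that rose were *MMP15*, *ADAMTS3*, *ADAMTS12* and *TIMP4*, and the genes that fell were *TIMP2*, *ADAMTS7*, *ADAMTS8* and *ADAMTS4*. That is 26.7% of the members tested, beside 25.7% of all 16158 genes tested (13.6% higher and 12.1% lower). A share this near the background is not a result about the family as a whole. The median log2 fold change was 0.06 over the tested members and 0.01 over all genes tested, and the median of its absolute value was 0.30 for the members and 0.29 for all genes. By class, 6 of 23 tested proteases, 0 of 3 ADAMTS-like genes and 2 of 3 tested TIMPs were past the threshold. Among the proteases these were 1 of 12 MMPs and 5 of 11 ADAMTS genes. Without *CDYL*-sh replicate 1, 2 members rose and 3 fell, and without *CDYL*-sh replicate 2 the calls over all genes dropped to 2082. On log2 FPKM with limma, a scale on which 461 or 507 genes passed in all, *ADAMTS7* was the only member past the threshold.

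**Figure D2:**
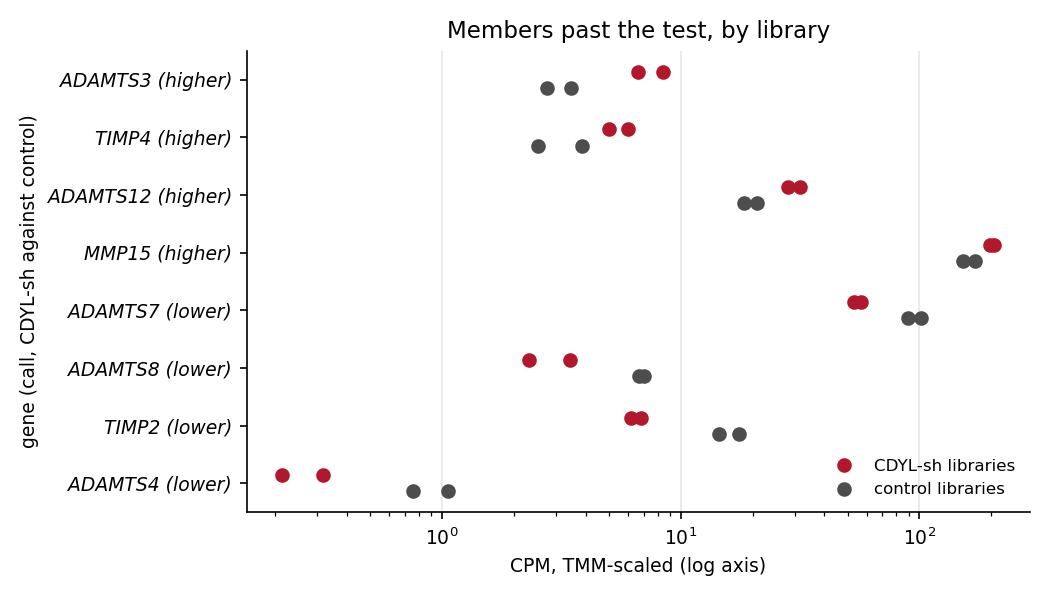
CPM on a log axis for the 8 members past the test, with 1 point per library, CDYL-sh above control within each gene. The libraries of the 2 groups do not overlap for any of the 8, and the levels run from 0.214 CPM for ADAMTS4 to 205.5 CPM for MMP15.

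The inhibitor genes *TIMP2* and *TIMP4* moved in opposite directions. *TIMP2* (ENSG00000035862, minus strand of chromosome 17, 78852977 to 78925387 on GRCh38), the inhibitor that also bridges MMP14 and the MMP2 precursor, had 173 and 151 counts in *CDYL*-sh libraries, against 403 and 464 counts in control libraries. In CPM this was 6.18 and 6.84 in *CDYL*-sh and 14.5 and 17.5 in control libraries. Both *CDYL*-sh libraries lay well below both controls, at 40.7% of the control mean. The log2 fold change was −1.30 (standard error 0.17, 95% interval −1.66 to −0.93, edgeR adjusted p = 4.31e-05). In these bulk libraries, fewer cells that express a gene and less RNA per cell cannot be told apart.

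*TIMP4* (ENSG00000157150, minus strand of chromosome 3, 12153068 to 12158912), a TIMP known chiefly from heart and other muscle, had 168 and 111 counts in *CDYL*-sh libraries and 70 and 102 counts in control libraries. After scaling, this was 5.999 and 5.03 CPM in *CDYL*-sh, against 2.51 and 3.84 CPM in control libraries. The groups did not overlap, but the lower *CDYL*-sh library and the higher control library were close. Its log2 fold change was 0.80 (standard error 0.25, 95% interval 0.28 to 1.32, edgeR adjusted p = 0.0244), and the call was lost with DESeq2 (adjusted p = 0.0893), without *CDYL*-sh replicate 1 (edgeR adjusted p = 0.16) or without control replicate 1 (edgeR adjusted p = 0.153). *TIMP4* lies within the gene *SYN2* on the opposite strand and shares 170 exon bases with it, and *SYN2* had at most 3 counts.

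*TIMP1* (ENSG00000102265), the broad inhibitor of secreted MMPs, was the most abundant member per length, with 167 and 185 FPKM (a level per length and depth) in *CDYL*-sh libraries and 154 and 180 FPKM in control libraries. The groups overlapped, and its log2 fold change was 0.06 with a 95% interval of −0.19 to 0.30. *TIMP3*, the inhibitor that binds to the matrix, had 1 and 0 counts in *CDYL*-sh and 3 and 6 counts in control libraries, too few for the test. *TIMP1* made up 96.2% and 96.9% of the summed TIMP FPKM in *CDYL*-sh libraries and 96.0% and 95.6% in control libraries. The changes in *TIMP2* and *TIMP4* therefore fell within a small remainder, which was 6.58 and 5.90 FPKM in *CDYL*-sh and 6.45 and 8.33 FPKM in control libraries. Within that remainder the order of these genes differed between the groups: *TIMP4* had 2.25 and 1.67 times the FPKM of *TIMP2* in *CDYL*-sh libraries, against 0.414 and 0.514 times in control libraries. Such a ratio restates the opposite calls of *TIMP4* and *TIMP2* and adds no evidence.

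The MMP transcripts of these cells came mainly from genes of membrane-anchored enzymes. *MMP15* and *MMP14* made up 72.6% and 71.5% of the summed MMP FPKM in *CDYL*-sh libraries and 72.3% and 76.1% in control libraries. With *MMP23B*, a type II membrane protein whose catalytic domain is released by cleavage, they reached 93.7% and 94.7% in *CDYL*-sh and 94.6% and 93.3% in control libraries.

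*MMP15* (ENSG00000102996, plus strand of chromosome 16, 58025754 to 58046901), which encodes the second membrane-type MMP, had 196.8 and 205.5 CPM in *CDYL*-sh libraries, against 152 and 171 CPM in control libraries. In FPKM this was 52.02 and 51.43 in *CDYL*-sh and 38.8 and 42.7 in control libraries. It was the only MMP of 12 tested that passed the threshold, with a log2 fold change of 0.31 (standard error 0.10, 95% interval 0.10 to 0.53, edgeR adjusted p = 0.0339). This small rise lost its call without *CDYL*-sh replicate 1 (edgeR adjusted p = 0.0822), *CDYL*-sh replicate 2 (0.164) or control replicate 1 (0.294).

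*MMP14* (ENSG00000157227), the collagenolytic activator of MMP2, had 80.3 and 82.8 CPM in *CDYL*-sh and 85.4 and 95.1 CPM in control libraries. Its log2 fold change of −0.15 did not pass the test, and the 95% interval ran from −0.37 to 0.08. *MMP2*, its usual substrate, was almost absent, with 4 and 0 counts in *CDYL*-sh and 0 and 1 in control libraries. The other gelatinase, *MMP9*, had 11 and 10 counts in *CDYL*-sh and 10 and 3 in control libraries. The partnership of MMP14 and TIMP2 was thus represented by its membrane enzyme and its inhibitor, with nearly no transcript of the gelatinase that they are known to activate.

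*MMP23B* (ENSG00000189409) had 18.8 and 19.2 CPM in *CDYL*-sh and 17.2 and 13.7 CPM in control libraries, a log2 fold change of 0.30 that did not pass (edgeR adjusted p = 0.154). Its reads are split with the near-identical pseudogene *MMP23A*, which received 301 and 262 counts in *CDYL*-sh and 134 and 265 counts in control libraries. The pair summed to 827 and 685 counts in *CDYL*-sh and 612 and 629 counts in control libraries. In a fit on such sums, chosen after seeing the data, the pair passed with a log2 fold change of 0.41 (standard error 0.13, edgeR adjusted p = 0.0229). The call at this locus thus changed with how the reads are assigned, but not with that alone. *MMP23B* by itself also passed with offsets for GC content and length (edgeR adjusted p = 0.0496). Its log2 fold change was 0.46 without control replicate 1.

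The remaining 20 MMPs summed to 6.86 and 5.58 FPKM in *CDYL*-sh and 4.94 and 6.25 FPKM in control libraries. None of the 9 tested among them passed in edgeR, with 0 at an unadjusted p under 0.05 and 0 called by DESeq2. Their log2 fold changes ran from −0.42 for *MMP25* to 0.81 (standard error 0.69) for *MMP9*. *MMP9* passed the filter on low counts through the *CDYL*-sh libraries, where its CPM is higher, so its value is a description. The membrane-type genes *MMP16*, *MMP17*, *MMP24* and *MMP25* were in this set. *MMP25* shares 1454 exon bases with its antisense gene, and *MMP19* shares 821 exon bases with *TMEM198B*, which had far more counts than *MMP19*. *MMP24OS*, with 2.68 and 2.45 CPM in *CDYL*-sh and 3.63 and 2.79 CPM in control libraries, shares 806 exon bases with *MMP24*, and neither passed the test.

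A cluster of 9 MMP genes lies on chromosome 11 between 102520508 and 102955732 and holds the collagenases *MMP1*, *MMP8* and *MMP13*, the stromelysins *MMP3* and *MMP10*, the elastase *MMP12*, the matrilysin *MMP7*, *MMP20* and *MMP27*. The whole cluster had 40 and 37 counts in *CDYL*-sh and 29 and 40 counts in control libraries. Only *MMP1* and *MMP10* were tested, with log2 fold changes of −0.10 and 0.29 that did not pass. *MMP3* had 3 and 3 counts in *CDYL*-sh and 0 and 0 in control libraries, which is at the limit of what such counts can show.

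**Figure D3:**
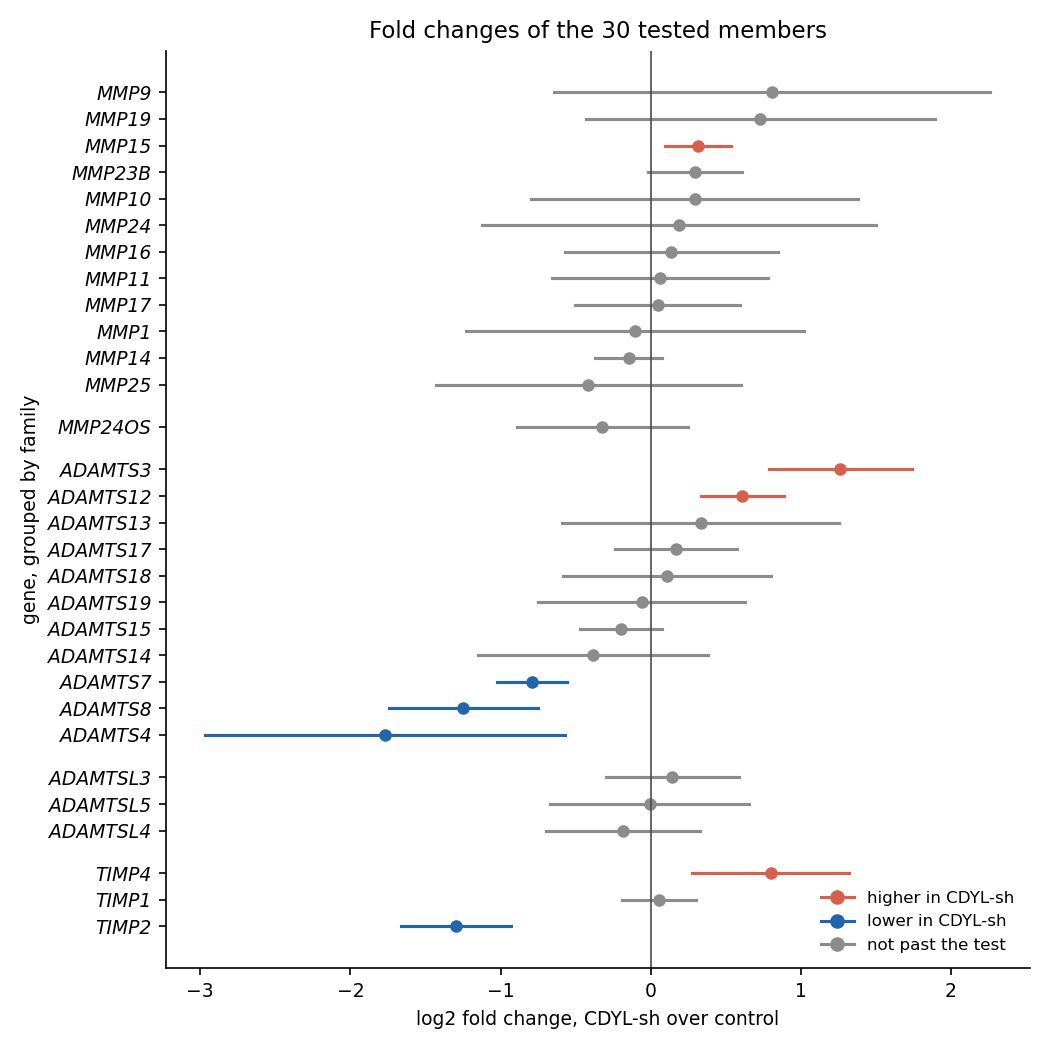
Log2 fold changes of CDYL-sh over control (points) with 95% intervals (lines) for the 30 tested members, grouped by family. Of the 12 MMPs only MMP15 lies past the test, the ADAMTS genes spread from −1.77 for ADAMTS4 to 1.26 for ADAMTS3, and TIMP2 and TIMP4 lie on opposite sides of 0.

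Of 11 tested ADAMTS genes 5 were called (45.5%), beside 25.7% of all genes tested. With so few genes, and *ADAMTS4* among them at low counts, this share is a description. *ADAMTS7*, *ADAMTS12* and *ADAMTS15* made up 74.5% and 71.4% of the summed ADAMTS FPKM in *CDYL*-sh libraries and 79.1% and 79.6% in control libraries. *ADAMTS7* and *ADAMTS12* are close relatives that both cut cartilage oligomeric matrix protein (COMP), and they changed in opposite directions. *ADAMTS7* (ENSG00000136378, minus strand of chromosome 15, 78759206 to 78811464) had 1489 and 1257 counts in *CDYL*-sh libraries, against 2487 and 2680 counts in control libraries. In CPM this was 53.2 and 57.0 in *CDYL*-sh and 89.3 and 101 in control libraries, so *CDYL*-sh cells had 57.9% of the control mean. The groups stood well apart, with a log2 fold change of −0.79 (standard error 0.11, 95% interval −1.02 to −0.56, edgeR adjusted p = 6.25e-05). It was past the threshold in all 15 alternative analyses. The pseudogenes *ADAMTS7P1*, *ADAMTS7P3* and *ADAMTS7P4* had between 0 and 9.89 counts in a library, so they took few reads from it.

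*ADAMTS12* (ENSG00000151388, minus strand of chromosome 5, 33523535 to 33892019) had 884 and 623 counts in *CDYL*-sh libraries and 512 and 552 counts in control libraries. In CPM this was 31.6 and 28.2 in *CDYL*-sh, against 18.4 and 20.8 in control libraries, a log2 fold change of 0.61 (standard error 0.13, 95% interval 0.33 to 0.89, edgeR adjusted p = 0.00243). The groups did not overlap in CPM. In FPKM the groups were closer, with 10.4 and 8.77 in *CDYL*-sh and 5.38 and 8.27 in control libraries. The length implied by its count and FPKM was 3.09 and 3.18 kb in *CDYL*-sh libraries and 3.44 and 2.47 kb in control libraries, so the 2 deposited measures differed for this gene. *ADAMTS7* had 1.08 and 1.32 times the FPKM of *ADAMTS12* in *CDYL*-sh libraries, against 3.49 and 2.52 times in control libraries, which restates their opposite calls. Their shared substrate *COMP* had 7 and 3 counts in *CDYL*-sh and 2 and 2 counts in control libraries.

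Among the proteoglycanases, which cut aggrecan and versican, the tested genes with a call were lower. *ADAMTS8* (ENSG00000134917, minus strand of chromosome 11, 130404923 to 130428609) had 96 and 51 counts in *CDYL*-sh libraries, against 187 and 187 counts in control libraries. This was 3.43 and 2.31 CPM in *CDYL*-sh and 6.71 and 7.05 CPM in control libraries, a log2 fold change of −1.25 (standard error 0.23, edgeR adjusted p = 0.000873). *ADAMTS15*, which starts 20.0 kb from *ADAMTS8*, had 22.0 and 22.0 CPM in *CDYL*-sh and 26.7 and 23.6 CPM in control libraries, and its log2 fold change of −0.20 (95% interval −0.47 to 0.08) did not pass. Thus the neighbours differed in whether they were called, and the difference between them was not tested.

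*ADAMTS4* (ENSG00000158859), known as an aggrecanase, had only 6 and 7 counts in *CDYL*-sh and 20.6 and 28 counts in control libraries. Its log2 fold change of −1.77 (standard error 0.57, edgeR adjusted p = 0.0292) was the lowest among the 30 tested members and the least precise among the called ones. It passed the filter on low counts through the control libraries, where it is higher, so its call is no more than a description. The call was lost when any 1 of the 4 libraries was left out (edgeR adjusted p 0.0652 to 0.211), and it was not tested with at least 10 counts in every library, on FPKM or after the filtering of DESeq2. *ADAMTS1* and *ADAMTS5*, the other well-known aggrecanases, lie 72.5 kb apart on chromosome 21 and had no count in any library. *ADAMTS9* and *ADAMTS20* had at most 2 counts.

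The procollagen N-propeptidases remove the amino-terminal propeptide of fibrillar procollagens. *ADAMTS3* (ENSG00000156140, minus strand of chromosome 4, 72280969 to 72569221), which also processes the lymphatic growth factor VEGF-C, had 185 and 186 counts in *CDYL*-sh libraries, against 97 and 73 counts in control libraries. In CPM this was 6.61 and 8.43 in *CDYL*-sh and 3.48 and 2.75 in control libraries, or 241% of the control mean in *CDYL*-sh cells. Both *CDYL*-sh libraries lay above both controls, with a log2 fold change of 1.26 (standard error 0.23, 95% interval 0.79 to 1.74, edgeR adjusted p = 0.000598), the highest of the tested members. *ADAMTS14* had 1.25 and 1.22 CPM in *CDYL*-sh and 1.72 and 1.51 CPM in control libraries, with no overlap but a log2 fold change of −0.38 that did not pass. *ADAMTS2* had 2 and 2 counts in *CDYL*-sh and 7 and 9 counts in control libraries and was not tested. Of this trio only *ADAMTS3* was called, and a difference in direction between its members was not tested.

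The other ADAMTS genes did not pass. *ADAMTS17*, whose loss causes a short-stature syndrome with lens defects, had 7.14 and 6.66 CPM in *CDYL*-sh and 6.39 and 5.88 CPM in control libraries, a log2 fold change of 0.17 with a 95% interval of −0.23 to 0.58. *ADAMTS13*, the von Willebrand factor protease, *ADAMTS18* and *ADAMTS19* had log2 fold changes between −0.06 and 0.33. *ADAMTS6* had 7 and 5 counts in *CDYL*-sh and 6 and 3 in control libraries, and *ADAMTS10* had at most 1 count. Among the ADAMTS-like genes, *ADAMTSL3* had 7.75 and 7.39 CPM in *CDYL*-sh and 8.29 and 5.39 CPM in control libraries, with overlapping groups and a log2 fold change of 0.14. *ADAMTSL4* and *ADAMTSL5* did not pass either, none of the 3 had an unadjusted p under 0.05 in edgeR or a call in DESeq2, and *ADAMTSL1* and *ADAMTSL2* had at most 3 counts.

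To show the start sites of the called genes, the bases just before the RefSeq start (GRCh38.p14) are given for the 5 of the 8 called members that have an entry. They read 5′ to 3′ in the direction of the gene, and bases that GENCODE annotates as transcribed were left off. Capitals mark the GC box GGGCGG known to bind Sp1, or its reverse complement CCGCCC, and the AP-1 site TGANTCA, the element through which several MMP genes are known to respond to growth factors. The sequences run over chr16:58025504-58025753 on the plus strand for *MMP15*, and on the minus strand over chr15:78811465-78811714 for *ADAMTS7*, chr5:33892020-33892240 for *ADAMTS12*, chr3:12158913-12159162 for *TIMP4* and chr4:72569222-72569471 for *ADAMTS3*.
MMP15: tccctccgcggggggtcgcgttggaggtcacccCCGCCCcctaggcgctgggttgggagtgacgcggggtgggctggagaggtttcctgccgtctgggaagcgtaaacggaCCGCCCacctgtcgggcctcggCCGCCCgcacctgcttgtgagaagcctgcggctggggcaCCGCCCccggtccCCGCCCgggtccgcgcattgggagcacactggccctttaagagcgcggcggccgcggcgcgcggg
ADAMTS7: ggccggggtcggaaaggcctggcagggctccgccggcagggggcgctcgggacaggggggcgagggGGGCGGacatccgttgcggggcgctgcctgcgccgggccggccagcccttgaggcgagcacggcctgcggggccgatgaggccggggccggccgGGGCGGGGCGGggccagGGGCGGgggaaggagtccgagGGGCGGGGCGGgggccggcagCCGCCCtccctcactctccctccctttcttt
ADAMTS12: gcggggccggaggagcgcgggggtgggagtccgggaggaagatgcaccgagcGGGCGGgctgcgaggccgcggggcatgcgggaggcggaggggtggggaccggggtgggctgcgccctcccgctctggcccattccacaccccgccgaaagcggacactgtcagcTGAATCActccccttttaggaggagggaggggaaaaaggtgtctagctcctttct
TIMP4: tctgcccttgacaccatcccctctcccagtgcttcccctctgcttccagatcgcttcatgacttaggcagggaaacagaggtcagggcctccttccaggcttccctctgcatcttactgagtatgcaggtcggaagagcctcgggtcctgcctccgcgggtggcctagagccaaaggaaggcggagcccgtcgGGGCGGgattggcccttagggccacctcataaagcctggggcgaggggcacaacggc
ADAMTS3: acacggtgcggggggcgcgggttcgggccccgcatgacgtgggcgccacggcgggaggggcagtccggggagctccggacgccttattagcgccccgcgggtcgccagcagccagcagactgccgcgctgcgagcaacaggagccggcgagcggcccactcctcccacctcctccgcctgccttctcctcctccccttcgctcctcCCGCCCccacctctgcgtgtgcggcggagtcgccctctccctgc

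The genes that rose and *ADAMTS7*, the only gene that fell with an entry, all carried the GC box in these windows. *TIMP2*, *ADAMTS8* and *ADAMTS4*, which also fell, had no entry, so the genes that fell cannot be described as a group. *ADAMTS7*, which fell, had 7 and *MMP15*, which rose, had 5, while *ADAMTS12*, *TIMP4* and *ADAMTS3* had 1 each. Over all members with an entry, 24 of 34 (70.6%) held the GC box within 250 bases before the start, compared with 42.6% of 35116 RefSeq promoters searched on both strands. The AP-1 site was found in *ADAMTS12* alone of the 5 shown, and in 4 of 34 members (11.8%), compared with 6.57% of all promoters. The other 3 were *MMP7*, *MMP10* and *MMP20*, none of which had more than 20 counts in a library. A match describes the letters of the window and is not a measured binding site.

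Summed by family, the transcript ratio of MMPs to TIMPs overlapped between the groups. This ratio leaves out the ADAMTS genes, and its sums are mainly *MMP15* and *MMP14* over *TIMP1*. It does not measure the balance of active enzyme and inhibitor, and *TIMP2* by itself was at 40.7% of the control mean CPM in *CDYL*-sh. MMP transcripts summed to 108.3 and 105.5 FPKM in *CDYL*-sh and 91.9 and 92.7 FPKM in control libraries, and the TIMPs to 174 and 191 FPKM in *CDYL*-sh and 160 and 188 FPKM in control libraries. The ratio of MMPs to TIMPs was 0.622 and 0.552 in *CDYL*-sh and 0.573 and 0.493 in control libraries. The MMP sums did not overlap between the groups and were higher in *CDYL*-sh, while the TIMP sums and the ratios overlapped. The ADAMTS sums were 34.8 and 34.1 FPKM in *CDYL*-sh, against 36.8 and 42.0 FPKM in control libraries. They did not overlap either, but were lower in *CDYL*-sh. Total FPKM over all genes was 1012186 and 1077292 in *CDYL*-sh and 962802 and 1009096 in control libraries, and the family sums were not adjusted for this. With 2 libraries against 2, an exact two-sided permutation test cannot give a p below 0.333, so no p is given for these sums and ratios, which are a description.

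**Figure D4:**
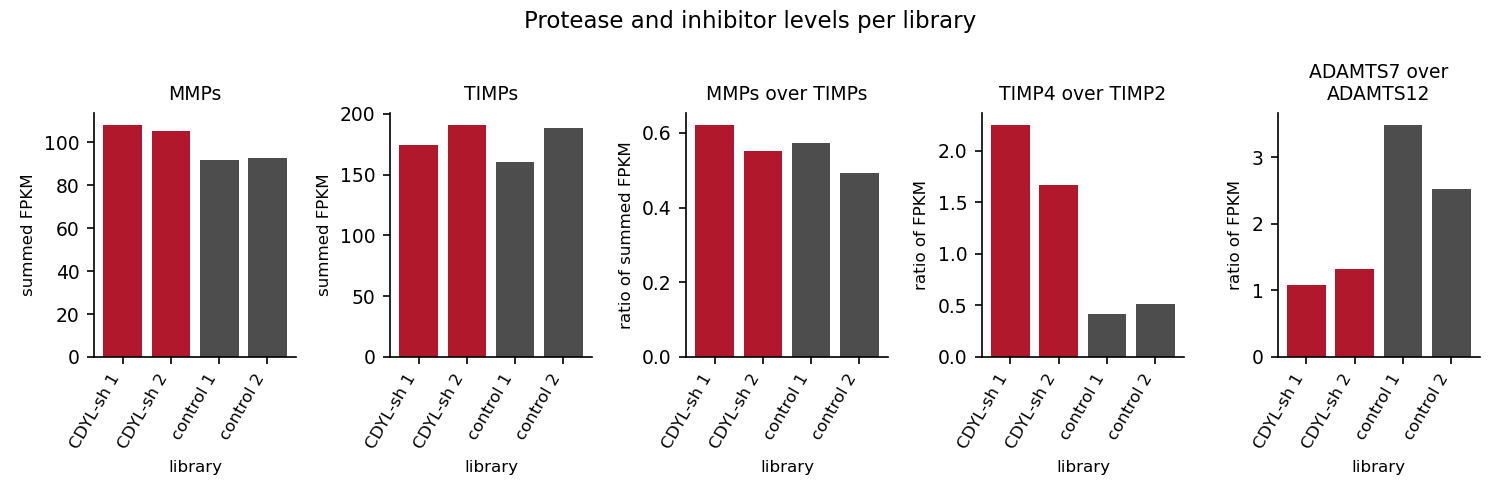
Summed FPKM of MMPs and of TIMPs, the ratio of these sums, and the FPKM ratios of TIMP4 to TIMP2 and of ADAMTS7 to ADAMTS12, with 1 bar for each CDYL-sh and control library. The ratio of MMPs to TIMPs overlaps between the groups. TIMP4 over TIMP2 is above 1.6 in CDYL-sh and below 0.6 in control libraries. In both gene ratios the genes were called in opposite directions in these same libraries, so their separation adds no evidence.

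The genes that act around these proteases were described from 5 lists of activators, regulators and substrates, whose counts are to be read against the same background of 25.7%. Plasmin activates several MMP precursors, and of 9 tested genes of the plasminogen system 3 rose and 0 fell in edgeR. In that fit 0 were lower at an unadjusted p under 0.05, and DESeq2 called 0 lower. With offsets for GC content and length, however, 4 genes of this list were called higher and 1 lower. The urokinase gene *PLAU* had 18.2 and 19.9 CPM in *CDYL*-sh, against 10.3 and 15.6 CPM in control libraries, a log2 fold change of 0.56 (standard error 0.17). The gene of its receptor, *PLAUR*, had a log2 fold change of 0.42, and *SERPINE2*, which encodes a serine protease inhibitor, of 0.94. Plasminogen itself (*PLG*) had at most 1 count. The rises of this list rested on few libraries: 1 gene was called higher by DESeq2 or without *CDYL*-sh replicate 1, and 0 genes without *CDYL*-sh replicate 2 or without control replicate 1.

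Of 14 tested genes of MMP activation and uptake, 1 rose and 4 fell. The testican *SPOCK2*, a matrix proteoglycan, had 2.43 and 2.18 CPM in *CDYL*-sh and 5.24 and 5.24 CPM in control libraries, a log2 fold change of −1.18 (standard error 0.24). The proprotein convertase *PCSK7* fell by 0.42 on the log2 scale, and *LRP1*, an endocytic receptor that clears MMPs and TIMPs, fell by 0.47. *FURIN*, the convertase that activates membrane-type MMPs, had 384 and 382 CPM in *CDYL*-sh and 335 and 386 CPM in control libraries and did not pass. Of the called genes *SPOCK2* alone was past the threshold whichever library was left out: *PCSK7* was lost without *CDYL*-sh replicate 2, and *LRP1* without either *CDYL*-sh library.

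Of 14 other tested metzincins, the wider enzyme family to which MMPs belong, 5 rose and 2 fell. Of the 5, *ADAM23* had 25 and 25 counts in *CDYL*-sh and 12 and 3 counts in control libraries. It passed the filter on low counts through the *CDYL*-sh libraries, where it is higher, so its call is a description. *ADAM10*, a sheddase of many membrane proteins, had 62.6 and 66.1 CPM in *CDYL*-sh, against 41.1 and 37.4 CPM in control libraries, a log2 fold change of 0.71 (standard error 0.11). *ADAM19* rose by 0.86 on the log2 scale, whereas *ADAM11*, a member without protease activity, had a log2 fold change of −1.42. These 3 genes passed whichever library was left out, whereas the whole list had 3 genes higher without *CDYL*-sh replicate 2 and 1 gene lower in each of the 4 fits without a library.

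Of the matrix substrates of ADAMTS proteases only 4 of 12 were expressed enough to be tested. The versican gene *VCAN* had 31.1 and 19 counts in *CDYL*-sh and 9 and 9 counts in control libraries, a log2 fold change of 1.57 (standard error 0.53). It passed the filter through the *CDYL*-sh libraries, where it is higher, and was not tested with at least 10 counts in every library, so its call is a description too. The link protein gene *HAPLN3* had a log2 fold change of −0.43. The call of *VCAN* was lost without any 1 library (edgeR adjusted p 0.111 to 0.279) and that of *HAPLN3* without *CDYL*-sh replicate 1 (edgeR adjusted p = 0.0594).

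The fibrillins, fibulins and latent TGF-β binding proteins are the microfibril partners of the ADAMTS-like proteins. Of 12 tested genes in their list, which also held *LOX* and *MFAP2*, 2 rose and 5 fell. *LOX*, the cross-linking enzyme of collagen and elastin, had 12.7 and 13.8 CPM in *CDYL*-sh, against 4.95 and 3.99 CPM in control libraries, a log2 fold change of 1.56 (standard error 0.19). *MFAP2*, a microfibril glycoprotein, had 30.1 and 30.9 CPM in *CDYL*-sh, against 55.7 and 64.5 CPM in control libraries, a log2 fold change of −0.98 (standard error 0.12). The fibulin gene *FBLN1* had a log2 fold change of −0.71. These 3 genes passed whichever library was left out, while the count of lower genes in the list was 3 without *CDYL*-sh replicate 2 or control replicate 1, and the count of higher genes was 1 without *CDYL*-sh replicate 1 or control replicate 2. On log2 FPKM with limma, *MFAP2* and *FBLN1* were the only genes of the 5 lists past the threshold among those called on counts and tested there, while the adjusted p with a pseudocount of 1 was 0.39 for *ADAM10*, 0.282 for *SPOCK2* and 0.07 for *LOX*. The FPKM of *ADAM10* overlapped, at 23.4 and 15.8 in *CDYL*-sh and 16.7 and 14.4 in control libraries.

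**Figure D5:**
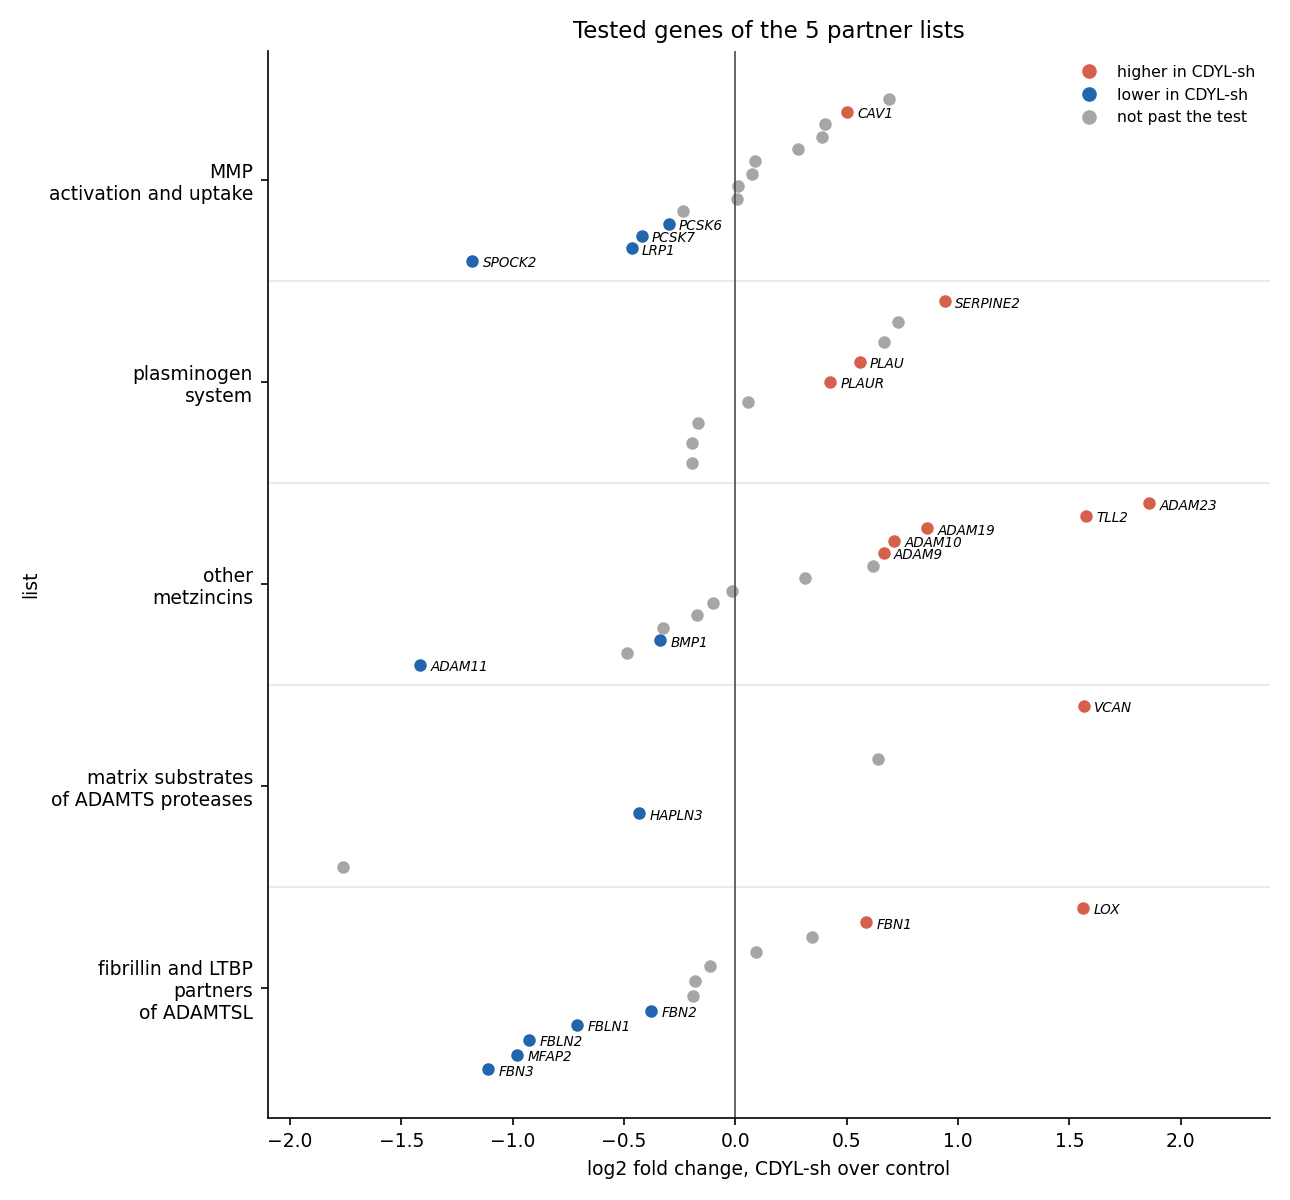
Log2 fold changes of CDYL-sh over control for the tested genes of the 5 partner lists, 1 point a gene, with the genes past the test named. The plasminogen system has 3 genes higher and 0 lower, and the fibrillin and LTBP partners have 2 higher and 5 lower.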

How the data were processed

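RNA from Ishikawa cells was made into TruSeq libraries and sequenced from both ends (HiSeq), and the authors used TopHat to align the reads to GRCh38.p10. RSEM and edgeR are further tools named in the submitters' processing notes. The deposited table holds expected counts, estimated by the authors and not always whole, for 58522 genes in each library. It also holds FPKM, normalized by the authors for length and depth, so levels of different genes were compared on FPKM only. The annotation release is not given in the sources used here, and 57392 identifiers matched a symbol in GENCODE 44, from which positions were taken.

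Expected counts were rounded, filtered with filterByExpr and normalized by TMM, and 16158 genes were tested, *CDYL*-sh against control, with the quasi-likelihood test of edgeR 4.0.16 (R 4.3.3). The Benjamini-Hochberg adjustment covered all genes tested, and the threshold was 0.05. Standard errors and 95% intervals are those of the log2 fold change, and the TMM library sizes were the base of CPM. Depths of 22341852 to 27688447 counts limit the members with few counts.

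The members, lists and tests were chosen with earlier results of these data known. Named were every TIMP, every member past the threshold, those averaging 5 CPM or more, those averaging 1 CPM or more whose groups did not overlap, the highest and lowest fitted fold changes, and up to 3 genes of each partner list by adjusted p. *MMP2*, *MMP3*, *MMP9*, *COMP*, *PLG*, *FURIN* and other genes outside this rule were named after their values were seen. Alternatives were RLE or no scaling, other filters, DESeq2 1.42.0, limma 3.58.1 with voom or on log2 FPKM (pseudocounts 1 and 0.1, mean FPKM of at least 0.5), a replicate block, each library left out, and offsets for GC content and length, which were chosen with an earlier GC trend of these data known. Sums of overlapping or near-identical pairs were added after seeing the data. Promoter sequences are from RefSeq (GRCh38.p14), with entries for 34 members. The results of 1 gene of a partner list are not reported here.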

Additional observations from a re-analysis of the deposited data

How the results depend on the processing

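The calls were computed under 15 alternatives. *ADAMTS7* passed in all of them, and no called member changed sign where it was tested. *ADAMTS4* was tested in 11 of them, since it had no adjusted p in DESeq2 and was dropped by the filter of at least 10 counts in every library and by both FPKM fits. *TIMP2*, *ADAMTS3*, *ADAMTS8* and *ADAMTS12* lost the call only with limma on log2 FPKM, where the adjusted p of *TIMP2* was 0.0561 (pseudocount 1) and 0.0505 (pseudocount 0.1). There, 461 genes were called with a pseudocount of 1 and 507 with 0.1, and with either 0 members were higher and 1 was lower. The cause was not tested. When 1 library was left out, with the lone library of its group assumed to vary like the others, between 2082 and 4006 genes were called, 2 to 4 members were higher and 3 were lower. DESeq2 called 3344 genes, with 3 members higher and 3 lower.

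*MMP23B* passed without control replicate 1 (edgeR adjusted p = 0.04), with GC and length offsets (0.0496) and summed with *MMP23A* (0.0229). When 1 library was left out, the log2 fold change of *TIMP1* ran from −0.086 (without control replicate 1) to 0.20 (without control replicate 2), and that of *ADAMTSL3* from −0.13 (without control replicate 2) to 0.48 (without control replicate 1), with none past the threshold. With GC and length offsets all 8 called members passed.

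The libraries share replicate numbers, but same-numbered libraries did not deviate together (r = 0.03 across 16158 genes, which are not independent). A replicate block gave 5393 calls over all genes and the same counts of 4 members higher and 4 lower.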
